A study of Homo sapiens with 30 samples.

Results

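The effect that the Gln and His missense-correcting tRNAs had in common on the mRNAs of HEK293 cells was taken as the mean of 2 changes: EGFP(R96Q)+Arg-tRNA_Gln(CUG) minus EGFP(R96Q), and EGFP(R96H)+Arg-tRNA_His(GUG) minus EGFP(R96H). Each of these 4 groups holds 3 libraries, so 12 of the 30 libraries of the series enter, and the difference between the 2 changes was tested in the same fit. The series asks how such tRNAs affect the cell's mRNAs. HEK293 is an established human embryonic kidney line, labelled wild type in all groups. The cells overexpressed a fluorescent reporter from a transfected plasmid, an EGFP whose arginine 96 is replaced by glutamine (R96Q) or histidine (R96H), fused to mCherry. In the groups with an mc-tRNA the same plasmid carried its gene. The labels do not say whether the plasmids of the reporter-alone groups carry a control tRNA. Cells positive for mCherry were sorted 48 h after transfection, and polyA RNA was sequenced from 3 replicates that the labels call independent. Below, R96Q and R96H libraries are those with the reporter alone, Gln and His libraries those with the mc-tRNA, and a number after the name is the replicate, so that His 2 is replicate 2 of EGFP(R96H)+Arg-tRNA_His(GUG). The Trp and Cys mc-tRNAs named in places are EGFP(R96W)+Arg-tRNA_Trp(CCA) and EGFP(R96C)+Arg-tRNA_Cys(GCA), each against its own reporter alone. Levels are CPM (counts scaled to TMM-adjusted library sizes), changes are log2 fold changes ± SE, and adjusted p-values are Benjamini-Hochberg values from edgeR's quasi-likelihood test with 3 libraries per group.

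An mc-tRNA brings an amino acid to a codon that normally stands for a different residue. By their labels, both tRNAs carry arginine: the anticodon CUG reads a glutamine codon and GUG a histidine codon, wherever these codons occur in the mRNAs of the cell. Proteins with wrong residues fold less well, and cells answer misfolding with chaperones made under heat shock factors in the cytosol, with the unfolded protein response in the endoplasmic reticulum (ER), and with the integrated stress response, in which less active eIF2 lets ATF4 accumulate and raise genes of amino acid supply. Proteasome, autophagy, p53 and NRF2 targets are other readouts of stress.

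Of 20684 genes tested, 445 were called for the shared effect at an adjusted p under 0.05 (2.15%). They were 281 higher (1.36%) and 164 lower (0.793%). The genes that rose included 18 of 35 cytosolic chaperone genes, and those that fell included 9 of 36 targets of the integrated stress response. Most changes were small: 224 of the 281 rises and 120 of the 164 falls were under 1.5-fold, and 26 rises and 22 falls were at least 2-fold. Scaling to library totals instead of TMM factors gave 169 higher and 283 lower, 37.4% higher against 63.1%, and moved the median log2 change of all genes from 0.005 to -0.021. The count fell most without certain single libraries of the His side, which leaves 2 in that group. The share called was 0.672% without R96H 3, 0.747% without R96H 2, 0.774% without His 1 and 0.759% without His 2. It was 1.10% without R96Q 2, but 2.53% without R96H 1 and 2.17% without His 3.

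Taken singly, the Gln mc-tRNA changed 0.691% of the genes, 79 higher (0.382%) and 64 lower (0.309%). The His mc-tRNA changed 711 (3.44%), 469 higher (2.27%) and 242 lower (1.17%). With library totals these splits were 51 higher and 87 lower for Gln, and 310 and 351 for His. The Gln count was 84 without R96Q 1, 50 without its replicate 2, and 63 without Gln 3. Of the His effects 0.705% and 0.531% of genes were called without R96H 2 and R96H 3, and 0.450% and 0.539% without His 1 and His 2. Only 27 genes were called in both single comparisons, of which 15 were higher in both, 7 lower in both and 5 went opposite ways. The 2 comparisons share no libraries. Across the 20684 genes, which are not independent replicates, the Gln and His effects had a Pearson correlation of 0.105 and a Spearman correlation of 0.032. The mean therefore describes a limited set of genes. For genes given by library below, the values of both reporters stand beside it. Many others have only the mean, which need not hold for each tRNA alone. All 3 libraries with the mc-tRNA lay above all 3 without it in both reporters for 333 genes (1.61%), and below in both for 250 (1.21%).

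**Figure D1:**
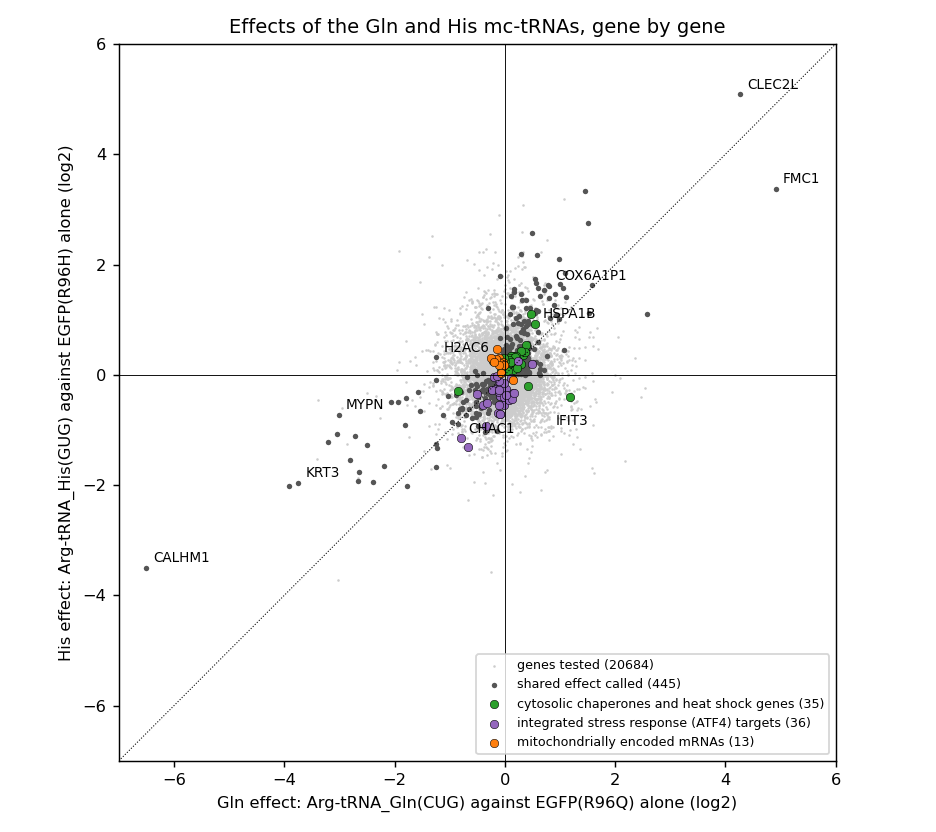
Log2 fold change of each of the 20684 tested genes with the Gln mc-tRNA (x axis) against the change with the His mc-tRNA (y axis), where grey points are all genes, dark points the 445 called for the shared effect, and coloured points 3 gene lists. FMC1 and CLEC2L lie far up on both axes and CALHM1 and KRT3 far down, while the cloud of all genes shows no common direction and the mitochondrially encoded mRNAs lie mostly left of and above 0.

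The 12 libraries held 40826508 to 55446962 counts in genes, so a gene with no count in a library lies below 0.0541 to 0.0735 CPM (3 counts; counting error only). The first principal component took 43.8% of the variance and set the 6 libraries of the R96Q reporter, at -40.6 to -24.9, apart from the 6 of the R96H reporter, at 17.9 to 48.6. The libraries of the 2 reporters thus differ at baseline, and each mc-tRNA was compared only within its own reporter. The labels name no batch, so a batch shared by the libraries of 1 reporter cannot be told apart from the reporter. Of 11 HEK293 marker genes 10 reached 1 CPM in some library; of 13 markers of blood, stroma, skin and liver 4 did, 2 were at 0 throughout, and none of either set was called. The summed level of those 13 markers was 25.3 to 28.2 CPM in the R96Q, 23.9 to 29.2 in the Gln, 19.7 to 23.8 in the R96H and 20.3 to 21.8 CPM in the His libraries. In bulk RNA a small change in all cells and a larger change in fewer cells cannot be told apart.

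Many cytosolic chaperone genes were higher in the mean of both effects. Of 35 genes tested, 18 were called higher and none lower, and the median change was 0.18, against 0.005 over all genes. Singly, 3 were called with the Gln mc-tRNA (median 0.12) and 17 with the His mc-tRNA (median 0.25). The count stayed at 12 to 17 whichever library was left out.

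HSPA8, the constitutive cytosolic HSP70, stood at 1198, 1205 and 1156 CPM in the R96Q libraries and at 1535, 1537 and 1561 CPM in the Gln libraries. It was 1197, 1174 and 1081 CPM in the R96H libraries and 1804, 1694 and 1499 CPM in the His libraries. No library with an mc-tRNA overlapped its controls, and the shared log2 change was 0.46 ± 0.04 (adjusted p = 1.49e-06), from 0.38 with Gln and 0.53 with His. HSP90AA1, the inducible HSP90, rose from 1539, 1350.4 and 1589 to 1842, 2031 and 1867 CPM with the Gln mc-tRNA and from 1860.1, 1799.9 and 1675 to 2469.8, 2437 and 2165 CPM with the His mc-tRNA. Its groups did not overlap either. Over both reporters this gave a change of 0.38 ± 0.05 (adjusted p = 2.85e-04). DNAJB1, an HSP40 that hands substrates to HSP70, was 101, 106 and 105 CPM against 126, 128 and 135.9 CPM in the EGFP(R96Q) reporter and 107, 104 and 97.3 CPM against 140.05, 131.1 and 127 CPM in EGFP(R96H). The 2 single effects were close, 0.32 and 0.37, and their mean was 0.34 ± 0.04 (adjusted p = 4.69e-05). These 3 genes are the only members called for each tRNA alone as well as for the mean.

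The largest change in the list was that of the stress-inducible HSP70 genes. HSPA1B measured 186, 217 and 224 CPM in the R96Q and 271, 288 and 361 CPM in the Gln libraries, and 239, 213 and 162 CPM in the R96H and 420.0, 389 and 357 CPM in the His libraries, with no overlap. The mean of both effects was 0.74 ± 0.11 (adjusted p = 0.0143). HSPA1A, a near-identical copy whose reads the counting could have assigned to either gene, was listed at 0.378, 0.842 and 0.977 CPM and 1.18, 0.957 and 0.959 CPM in the first pair of groups and 0.607, 0.580 and 0.406 CPM and 1.43, 1.06 and 0.941 CPM in the second. The first pair overlapped and the second did not (shared 0.79 ± 0.21, adjusted p = 0.0498), and HSPA1A kept its call only without R96Q 3 and lost it in the other 11 fits with 1 library left out (adjusted p 0.0517 to 0.162). HSPA1A and HSPA1B are therefore uncertain as single genes. HSPH1, the HSP110 that recharges HSP70, rose by 0.37 ± 0.06 (adjusted p = 0.00325), from 188, 187 and 213 to 231, 265 and 226 CPM and from 229.5, 222 and 199.9 to 313, 308 and 264 CPM. BAG3, which routes HSP70 clients to autophagy, rose by 0.28 ± 0.05 (adjusted p = 0.00433), and STIP1, which bridges HSP70 and HSP90, by 0.25 ± 0.04 (adjusted p = 0.00128). In HSPH1, BAG3 and STIP1 every library with an mc-tRNA exceeded its 3 controls.

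**Figure D2:**
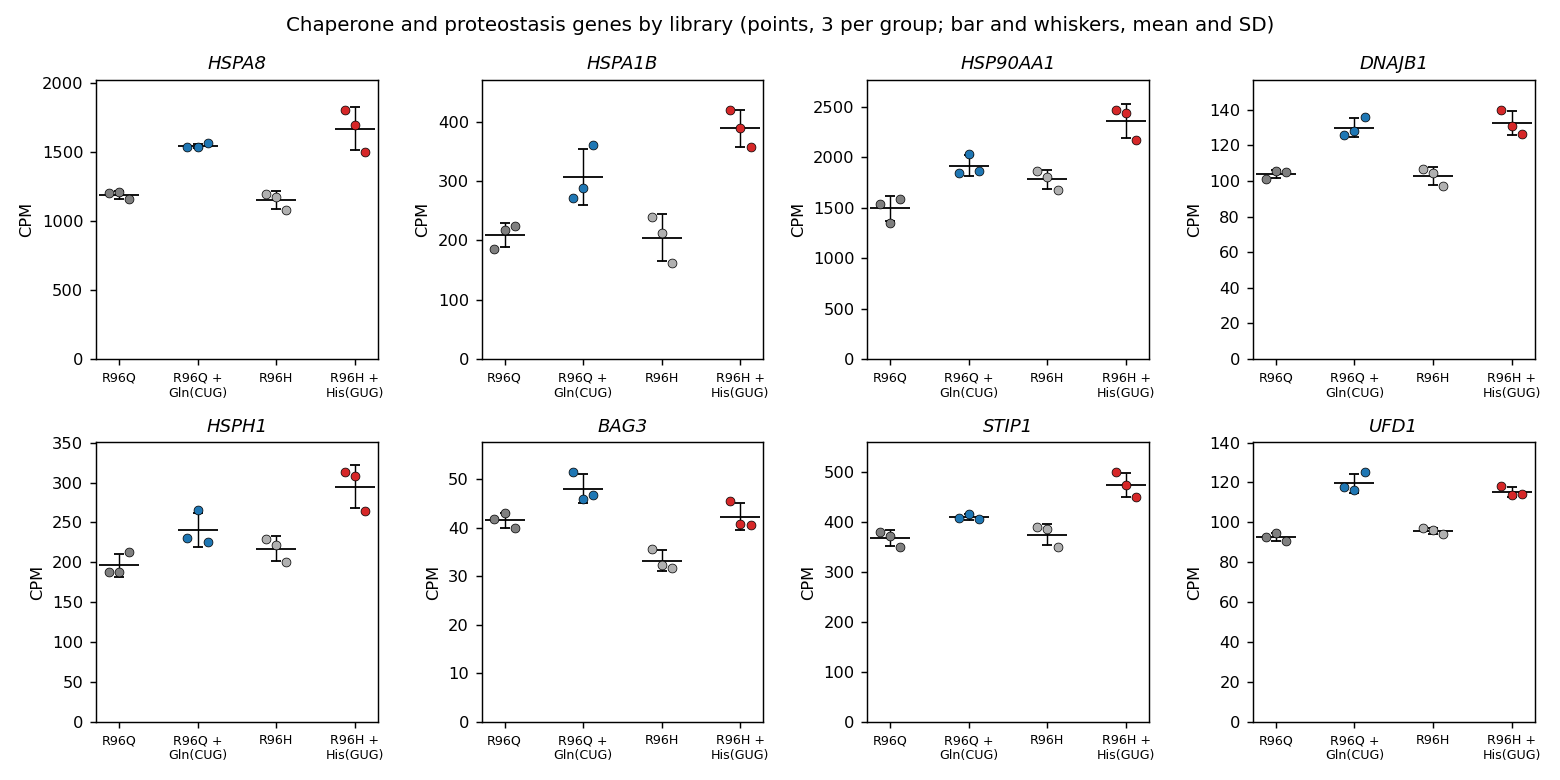
CPM (y axis) of 8 genes in the 4 groups (x axis), with points for the 3 libraries of a group and a bar with whiskers for mean and SD. In all 8 genes the points with an mc-tRNA lie above those of the same reporter alone, by a shared log2 change of 0.25 for STIP1 to 0.74 for HSPA1B.

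The other called members were AHSA1 (0.25), HSP90AB1 (0.17), PTGES3 (0.18), DNAJB6 (0.18), DNAJA1 (0.22), HSPA4 (0.20), CHORDC1 (0.25), DNAJB4 (0.24), CACYBP (0.15) and ST13 (0.11), all log2 and mostly HSP70 or HSP90 partners. HSPA4 lost its call without His 2 (adjusted p = 0.0561). CHORDC1 lost its call without R96H 3 or His 2 (adjusted p 0.0515 to 0.0561). CACYBP lost its call without R96Q 3, R96H 2 or 3 or His 1 or 2 (adjusted p 0.0566 to 0.112). DNAJB4 kept its call only without R96Q 1 or 3, Gln 1 or 3 or His 3 and lost it in the other 7 fits with 1 library left out (adjusted p 0.0501 to 0.0802). ST13 lost its call in each of the 12 fits with 1 library left out (adjusted p 0.0556 to 0.152). Among the 17 not called were the heat-inducible HSPA6 (0.18 ± 0.21), the small heat shock protein HSPB1 (0.18 ± 0.05), the collagen chaperone SERPINH1 (0.04 ± 0.05) and the factor HSF1 itself (0.07 ± 0.04). For DNAJB2 the 2 effects differed, -0.22 with Gln and 0.25 with His (difference 0.47 ± 0.11, adjusted p = 0.0467). However, this difference kept its call only without R96Q 3, Gln 1 or His 3. It lost its call in the other 9 fits with 1 library left out (adjusted p 0.0595 to 0.166).

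Heat shock factors bind inverted repeats of the pentamer NGAAN, where N is any base. Such a repeat was searched for in the RefSeq promoter windows of these genes (GRCh38.p14, 250 bases before to 50 after each start). It was taken as 3 alternating GAA and TTC blocks with NN between them, on both strands, where matches can overlap. It was found in 9 of 205 genes called higher that had a window (4.39%), in 0 of 108 called lower, and in 63 of 12847 tested genes (0.490%), while 0.490% of all 35116 windows hold it. Of the chaperone genes, 6 of 17 called higher and 2 of 13 not called held it, so the letters are neither present in all that rose nor absent from the rest. A match is a description of the letters only. The stretches below, 5′ to 3′ on the gene's strand with the repeat in capitals, are those of chaperones whose match lies before the start: HSPA8 (chr11:123062137-123062386, minus strand, the whole 250 bases with 2 repeats), HSP90AA1 (chr14:102087080-102087172, minus strand), HSP90AB1 (chr6:44247791-44247883, plus strand), CHORDC1 (chr11:90223052-90223144, minus strand) and DNAJB6 (chr7:157336833-157336925, plus strand), which rose, the mitochondrial chaperonin HSPD1 (chr2:197500028-197500090, minus strand), which also rose, and HSPA6 (chr1:161524426-161524518, plus strand) and SERPINH1 (chr11:75562137-75562229, plus strand), which were not called.
HSPA8: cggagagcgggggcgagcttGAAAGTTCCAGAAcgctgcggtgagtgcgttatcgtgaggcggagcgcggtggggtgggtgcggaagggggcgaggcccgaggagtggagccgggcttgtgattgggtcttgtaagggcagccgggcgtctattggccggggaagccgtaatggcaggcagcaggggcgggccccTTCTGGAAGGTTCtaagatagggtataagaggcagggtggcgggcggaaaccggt
HSP90AA1: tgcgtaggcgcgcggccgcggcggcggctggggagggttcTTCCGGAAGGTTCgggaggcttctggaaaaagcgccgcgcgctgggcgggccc
HSP90AB1: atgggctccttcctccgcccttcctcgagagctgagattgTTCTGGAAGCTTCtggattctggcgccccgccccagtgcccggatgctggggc
CHORDC1: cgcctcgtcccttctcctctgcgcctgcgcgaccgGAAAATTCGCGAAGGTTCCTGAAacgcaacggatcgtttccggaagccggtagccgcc
DNAJB6: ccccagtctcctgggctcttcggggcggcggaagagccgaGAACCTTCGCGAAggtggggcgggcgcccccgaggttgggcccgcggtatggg
HSPD1: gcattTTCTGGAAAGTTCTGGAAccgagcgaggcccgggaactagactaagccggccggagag
HSPA6: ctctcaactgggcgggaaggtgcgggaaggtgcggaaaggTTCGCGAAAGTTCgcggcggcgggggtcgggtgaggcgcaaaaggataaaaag
SERPINH1: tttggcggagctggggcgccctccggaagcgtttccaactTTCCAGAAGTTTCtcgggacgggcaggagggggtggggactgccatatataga
In CHORDC1, which regulates HSP90, and in HSPD1 the repeats run into each other. HSP90AB1 held a further repeat 165 bases before its start, outside the stretch shown. DNAJA1 held a match only after its start, and no match was found in the windows of DNAJB1, HSPH1, BAG3 and STIP1.

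Other folding machines moved less. The ring-shaped chaperonin TRiC, which folds actin and tubulin, had 3 of 8 subunits called higher and none lower (median 0.09). TCP1 went from 473, 476 and 452 to 518, 512 and 511 CPM with Gln and from 499.8, 494 and 436 to 604, 596 and 561 CPM with His. Its groups were apart in both reporters. The shared change was 0.22 ± 0.04 (adjusted p = 0.00336). CCT6A (0.16) and CCT4 (0.11) were the others; CCT4 lost its call in each of the 12 fits with a library left out, and CCT6A without R96H 3 and without His 1 and 2, which left 1 subunit called (adjusted p of both genes 0.0626 to 0.143). Of 13 mitochondrial chaperones and proteases 3 were called higher: the chaperonin HSPD1 (0.16 ± 0.03, adjusted p = 0.00704), its cap HSPE1 (0.33 ± 0.06, adjusted p = 0.00772) and the mitochondrial HSP70 HSPA9 (0.19 ± 0.04, adjusted p = 0.0105). HSPA9 missed the threshold without His 1 (adjusted p = 0.0512) or 2 (adjusted p = 0.0554), and HSPD1 and HSPE1 with 24 libraries in the fit (adjusted p 0.0519 and 0.127).

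Few genes of the ER arm were called. Of 28 genes of the ER unfolded protein response 1 was called, MANF (0.16 ± 0.04, adjusted p = 0.0225), and it kept its call only without R96Q 1 or 3 or Gln 1, 2 or 3 and lost it in the other 7 fits with 1 library left out (adjusted p 0.0511 to 0.0982). HSPA5, the ER HSP70 also called BiP, was 533, 561 and 559 CPM in the R96Q and 619, 608 and 641 CPM in the Gln libraries, and 682, 737 and 704 CPM in the R96H and 717, 731 and 762 CPM in the His libraries. The R96H and His libraries overlapped, and the shared change of 0.12 ± 0.03 missed the threshold (adjusted p = 0.0593; 0.0385 with DESeq2). With a replicate block edgeR called HSPA5, CALR and SDF2L1 (adjusted p 0.0121 to 0.028). The list's median in the main fit was 0.05.

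A few genes of protein removal rose. UFD1, the p97 partner that extracts ubiquitinated proteins, was the clearest: 92.8, 94.7 and 90.7 CPM in the R96Q and 118, 116 and 125 CPM in the Gln libraries, and 97.1, 96.1 and 94.2 CPM in the R96H and 118, 114 and 114 CPM in the His libraries. All 6 libraries with an mc-tRNA stood above their controls, the shared change was 0.32 ± 0.03 (adjusted p = 3.39e-05), and each tRNA alone passed the test (0.37 and 0.27). SQSTM1, the autophagy receptor p62, rose by 0.25 ± 0.04 (adjusted p = 0.00202), from 135.3, 134.1 and 123 to 171, 157.3 and 156.6 CPM and from 135.7, 136.5 and 129.03 to 160.1, 149.3 and 147.7 CPM, without overlap. Of 18 genes of the ubiquitin and p97 system 4 were called higher and none lower, with UFD1, SQSTM1 and the ubiquitin gene UBB (0.17 ± 0.03) among them. UBB lost its call with 24 libraries in the fit (adjusted p = 0.241).

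Of 31 proteasome subunits, 6 were called higher and none lower. A positive change was seen in 30 (median 0.11), against 51.7% of all genes tested. PSMB2, a core subunit, went from 175, 164 and 155.2 to 199.9, 187 and 179.7 CPM and from 183, 173 and 157.3 to 209, 195 and 188 CPM. Both pairs of groups were apart. Over both reporters this gave a change of 0.20 ± 0.04 (adjusted p = 0.023). This count did not hold: 0 subunits were called with library totals (29 of 31 still positive) or when the fit took in all 24 EGFP(R96) libraries. It was also 0 without R96H 2 or 3 and without His 1 or 2. It was 1 without R96Q 2, 2 without R96Q 3, R96H 1 or Gln 1, and 3 without the last group's replicate 2.

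Of the 22 NRF2 antioxidant targets 5 were called higher and none lower. Besides SQSTM1 they were PIR, the peroxiredoxin PRDX1 (0.22 ± 0.04) and the ferritin chains FTL (0.22 ± 0.05) and FTH1 (0.16 ± 0.04). PIR, pirin, rose with Gln alone, from 10.9, 11.3 and 11.1 to 17.7, 17.6 and 16.8 CPM, and was 26.6, 25.5 and 28.00 CPM without and 26.7, 26.9 and 25.95 CPM with the His mc-tRNA (difference -0.66 ± 0.09, adjusted p = 0.00154), so its shared change of 0.32 ± 0.05 (adjusted p = 8.00e-04) rests on 1 tRNA. HMOX1 (0.45 ± 0.12, adjusted p = 0.1) and NQO1 (0.10 ± 0.12, adjusted p = 0.711), 2 classical targets, were not called, though HMOX1 was with DESeq2 (adjusted p = 0.023). The count was 3 without R96H 1 and 2 without R96H 2 or 3 or His 1 or 2. PRDX1 lost its call without R96H 2 or 3 or His 1 or 2 (adjusted p 0.0509 to 0.0591). FTL lost its call without R96H 1, 2 or 3 or His 1 or 2 (adjusted p 0.059 to 0.097). FTH1 kept its call only without R96Q 1 or 2 and lost it in the other 10 fits with 1 library left out (adjusted p 0.0511 to 0.12).

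**Figure D3:**
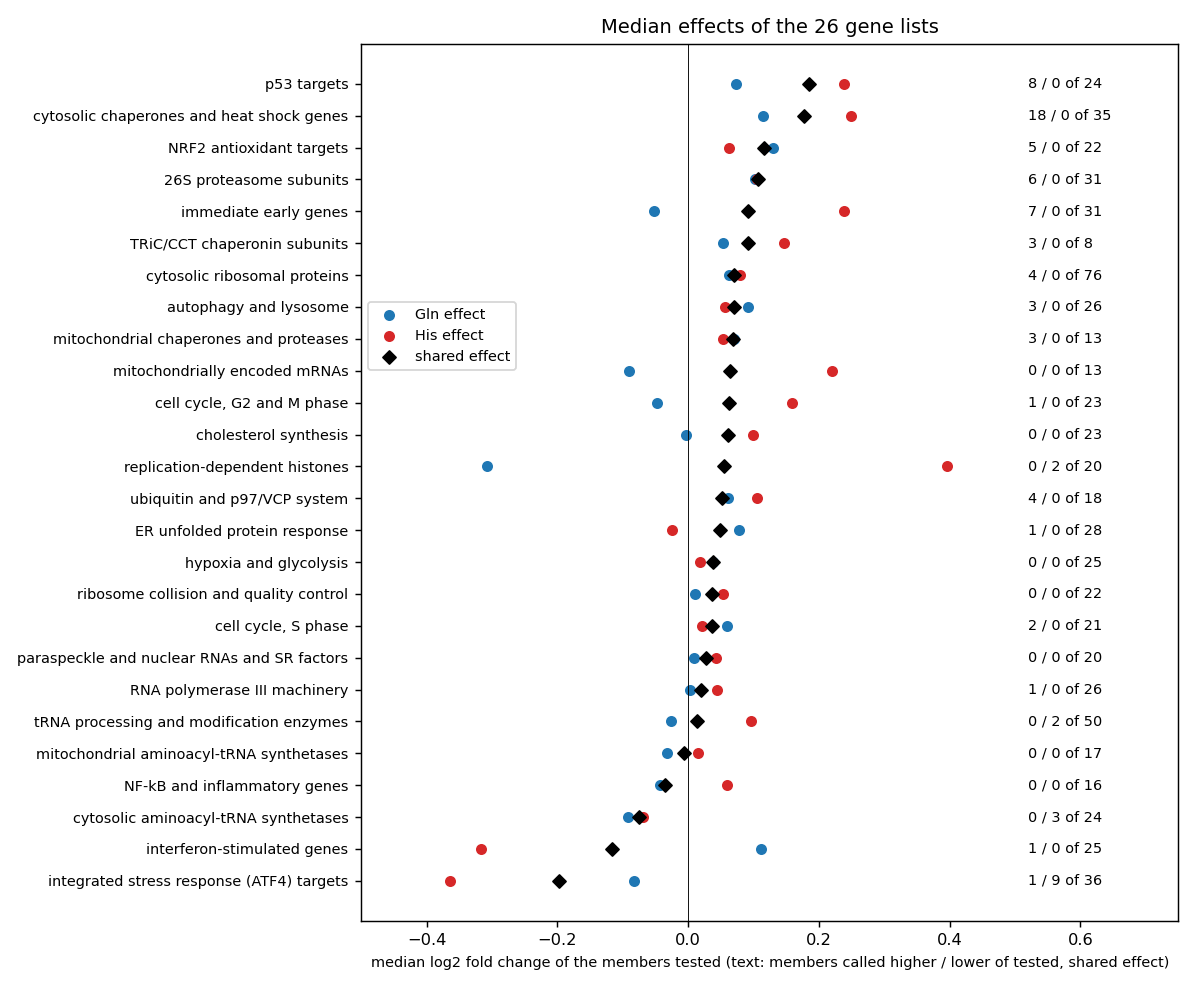
Median log2 fold change (x axis) of the tested members of the 26 gene lists (y axis) for the Gln effect, the His effect and their mean, with the number of members called higher and lower for the shared effect at the right. The chaperones have the most calls, 18 higher of 35, the integrated stress response lies lowest for the His effect and the mean, with 9 of 36 lower, and in the histones, mitochondrial mRNAs and interferon genes the 2 effects stand far apart on opposite sides of 0.

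Some targets of the integrated stress response fell. Of 36 genes 9 were called lower and 1, GDF15, higher. A negative shared change was seen in 33, with a median of -0.20, while 51.7% of all genes tested had a positive one. The His mc-tRNA gave 16 of the single calls, all lower (median -0.36), and the Gln mc-tRNA 1 lower and 1 higher (median -0.08). Across the 36 members, which share libraries, the 2 effects had a Pearson correlation of 0.692, against 0.105 over all genes. In the other lists with at least 20 tested members it ran from -0.748 (paraspeckle and splicing genes) to 0.300 (G2 and M phase). It was 0.201 for the cytosolic chaperones, 0.106 for the p53 targets and -0.276 for the proteasome.

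SLC6A9, a glycine transporter, fell from 31.1, 32.6 and 34.8 to 19.4, 19.7 and 22.1 CPM with His and was 19.7, 18.5 and 17.6 CPM without and 18.5, 17.2 and 15.5 CPM with Gln. The mean of both effects was -0.40 ± 0.06 (adjusted p = 6.23e-04). The Gln groups overlapped. The 2 effects differed by -0.56 ± 0.11 (adjusted p = 0.0215), though this difference lost its call without R96Q 2, R96H 2 or 3 or His 1 or 2 (adjusted p 0.0553 to 0.0768). CTH, which makes cysteine from cystathionine, fell from 86.4, 83.5 and 72.96 to 59.8, 59.2 and 52.7 CPM with Gln and was 74.9, 84.8 and 96.2 CPM without and 60.6, 65.3 and 75.4 CPM with His. The Gln groups were apart and the His groups overlapped by 1 library each. The shared change was -0.42 ± 0.07 (adjusted p = 0.00766). CHAC1, which degrades glutathione, was 22.9, 22.8 and 20.3 CPM in the R96Q and 12.98, 12.5 and 12.8 CPM in the Gln libraries, and 42.7, 52.9 and 59.3 CPM in the R96H and 14.9, 21.4 and 33.5 CPM in the His libraries. Its groups were apart in both reporters (shared -0.97 ± 0.18, adjusted p = 0.0338), yet CHAC1 kept its call only without R96H 1 or His 1 or 3 and lost it in the other 9 fits with 1 library left out (adjusted p 0.0589 to 0.097). The serine synthesis enzymes PHGDH (-0.21 ± 0.04) and PSPH (-0.25 ± 0.05), CBS (-0.20 ± 0.05), STC2 (-0.20 ± 0.05), the mTOR inhibitor DDIT4 (-0.47 ± 0.10) and the hormone FGF21 (-0.99 ± 0.25) were the other falls. PHGDH lost its call without R96H 2 or His 1 or 2 (adjusted p 0.0508 to 0.0561). PSPH lost its call without R96H 2 or 3 or His 1 or 2 (adjusted p 0.0561 to 0.0689). STC2 kept its call only without R96Q 3, R96H 1 or His 3 and lost it in the other 9 fits with 1 library left out (adjusted p 0.0524 to 0.105). CBS kept its call only without R96Q 3, R96H 1 or 2 or His 3 and lost it in the other 8 fits with 1 library left out (adjusted p 0.0525 to 0.097). DDIT4 kept its call only without Gln 3, R96H 1 or His 1 or 3 and lost it in the other 8 fits with 1 library left out (adjusted p 0.0675 to 0.11). FGF21 kept its call only without Gln 1, R96H 1 or His 3 and lost it in the other 9 fits with 1 library left out (adjusted p 0.0619 to 0.122). GDF15, a stress cytokine that is also a p53 target, rose by 0.34 ± 0.08 but kept its call only without Gln 3 or His 2 and lost it in the other 10 fits with 1 library left out (adjusted p 0.0513 to 0.125).

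The spread among replicates was wide here. ASNS, asparagine synthetase, stood at 618, 768 and 886 CPM in the 3 R96H libraries and 450.4, 520.3 and 623 CPM in the 3 His libraries, which overlap, and at 395, 425 and 416 and 305, 327 and 358 CPM in the R96Q and Gln libraries, which do not. Over both reporters this gave a change of -0.42 ± 0.10 (adjusted p = 0.0785). ASNS was called in other fits, without R96H 1 (adjusted p = 0.0204) or His 3 (adjusted p = 0.0342), with DESeq2 (adjusted p = 0.0066) and with 24 (adjusted p = 0.0226) or 30 libraries (adjusted p = 0.0153), among others. In both the R96H and the His libraries ASNS rose from replicate 1 to replicate 3. With a replicate block in edgeR it was called (adjusted p = 2.03e-07), though correlations did not show that the replicate numbers pair libraries. TRIB3, a pseudokinase that restrains ATF4, was 41.1, 59.97 and 81.8 CPM in the R96H and 37.8, 37.8 and 49.1 CPM in the His libraries. The mean of both effects was -0.33 ± 0.16 (adjusted p = 0.326; 0.0365 without R96H 1). Without R96H 1, the lowest of its group in both genes, 18 members were called, all lower, and 18 without His 3. The count was 3 without R96H 2 or 3 or His 2, and 4 without replicate 1 of the latter group, R96Q 2 or Gln 2. It was 5 without R96Q 1 and 6 without its replicate 3 or without Gln 1. ATF4 itself (0.03 ± 0.04), ATF3 (-0.08 ± 0.06) and DDIT3, the factor CHOP (-0.17 ± 0.10), were not called.

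**Figure D4:**
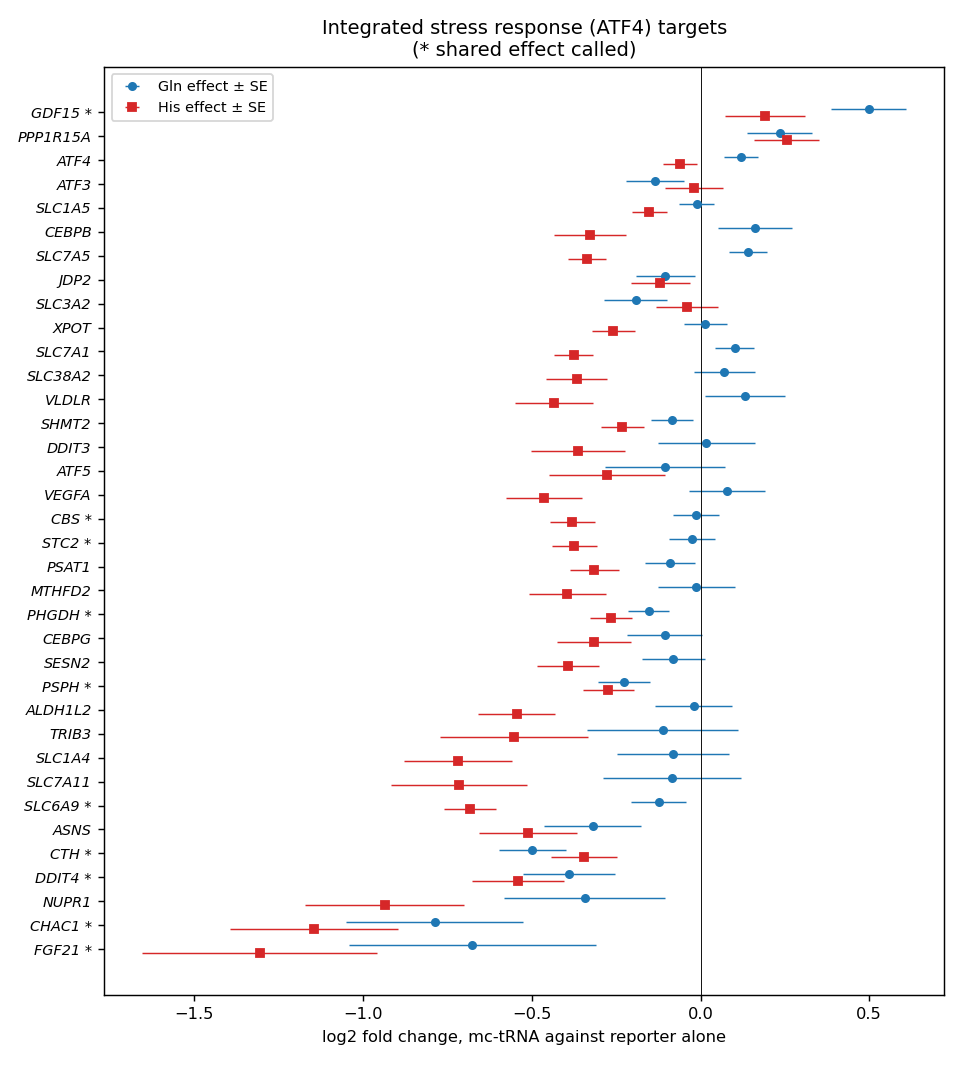
Log2 fold change with its SE (x axis) of the 36 targets of the integrated stress response (y axis), with the Gln effect as blue circles and the His effect as red squares, and an asterisk where the shared effect was called. The His effects lie below 0 for all but GDF15 and PPP1R15A, most Gln effects lie nearer to 0, and CHAC1 and FGF21 lie lowest for both.

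The cytosolic aminoacyl-tRNA synthetases, which charge tRNAs and include ATF4 targets, had 3 of 24 members called lower: GARS1 (-0.18 ± 0.04), AARS1 (-0.17 ± 0.04) and CARS1 (-0.18 ± 0.05). GARS1 lost its call without R96Q 2, R96H 2 or 3 or His 1 or 2 (adjusted p 0.0621 to 0.0689). AARS1 lost its call without R96Q 2, Gln 2, R96H 2 or 3 or His 1 or 2 (adjusted p 0.0581 to 0.079). CARS1 kept its call only without R96Q 3, R96H 1 or His 3 and lost it in the other 9 fits with 1 library left out (adjusted p 0.0553 to 0.128). Among the synthetases for the amino acids concerned here, RARS1 for arginine changed by 0.06 ± 0.04, QARS1 for glutamine by -0.04 ± 0.03 and HARS1 for histidine by 0.06 ± 0.04; none was called (these 3 were picked for their amino acids). Without R96H 1 the count was 8, with library totals 6, and it was 0 without R96H 2 or 3, His 1 or 2, or R96Q 2, and 1 without Gln 2. None of 17 mitochondrial synthetases was called, nor any of 22 genes of ribosome collision and quality control, by the main edgeR fit or DESeq2. In edgeR 2 and 4 had an unadjusted p under 0.05, beside 3521 of all 20684 genes tested. With a replicate block edgeR called EIF4E2 of the collision list (adjusted p = 0.0406). Of 50 tRNA processing and modification enzymes 2 were called lower, the splicing endonuclease subunit TSEN15 (-0.21 ± 0.05) and THG1L (-0.21 ± 0.05), the enzyme that adds the extra guanosine of histidine tRNAs. TSEN15 lost its call without R96Q 2, Gln 1, R96H 2 or 3 or His 1 or 2 (adjusted p 0.0572 to 0.0833). THG1L kept its call only without R96Q 1, R96H 1 or His 3 and lost it in the other 9 fits with 1 library left out (adjusted p 0.0546 to 0.105). In the RNA polymerase III machinery, which transcribes tRNA genes, POLR3E (0.16 ± 0.04) was the only call of 26. It was not called with library totals. It rose with Gln, from 94.4, 86.9 and 86.2 to 112, 106 and 111 CPM, was 100.2, 94.96 and 94.2 and 101, 94.9 and 96.4 CPM without and with His, and kept its call only without R96Q 1, Gln 2 or R96H 1 and lost it in the other 9 fits with 1 library left out (adjusted p 0.0537 to 0.117).

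Of the 24 p53 targets 8 were called higher and none lower (median 0.18). TP53INP1, a stress-induced p53 cofactor, was 36.5, 34.7 and 33.3 CPM in the R96Q and 44.4, 50.5 and 45.00 CPM in the Gln libraries, and 31.8, 31.9 and 29.3 CPM in the R96H and 38.8, 40.9 and 35.1 CPM in the His libraries. No groups overlapped, and each tRNA alone passed the test. The shared change was 0.36 ± 0.05 (adjusted p = 5.88e-04). ZMAT3, an RNA-binding p53 target, likewise stood apart in both reporters. Over both reporters this gave a change of 0.35 ± 0.06 (adjusted p = 0.00594). The antiproliferative gene BTG2, which is also an immediate early gene, rose by 0.34 ± 0.06 (adjusted p = 0.00329), from 31.5, 31.2 and 28.2 to 50.7, 42.5 and 40.4 CPM with His but from 62.01, 53.3 and 55.7 to 64.1, 64.6 and 58.9 CPM with Gln, where the groups overlapped. FDXR (0.34 ± 0.06), GADD45A (0.22 ± 0.05), TIGAR (0.22 ± 0.05), GDF15 and CDKN1A, the cell cycle inhibitor p21 (0.19 ± 0.05), were the others. FDXR lost its call without R96H 3 or His 2 (adjusted p 0.0561 to 0.0692). GADD45A lost its call without Gln 2, R96H 1, 2 or 3 or His 1 or 2 (adjusted p 0.0544 to 0.0922). TIGAR kept its call only without R96Q 1, Gln 3, R96H 1 or His 3 and lost it in the other 8 fits with 1 library left out (adjusted p 0.0616 to 0.136). CDKN1A kept its call only without R96Q 1 or Gln 3 and lost it in the other 10 fits with 1 library left out (adjusted p 0.0507 to 0.161). The count was 5 without R96H 1 or R96Q 2 or 3, 4 without R96H 2, His 1 or 2 or Gln 2, and 3 without R96H 3. With library totals it was 5.

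Of 31 immediate early genes, which respond within a short time to growth factors and stress, 7 were called higher and none lower. NR4A1, an orphan nuclear receptor, rose from 36.8, 37.7 and 34.3 to 47.4, 46.6 and 51.7 CPM and from 27.04, 27.6 and 26.4 to 29.7, 29.5 and 35.2 CPM (shared 0.32 ± 0.05, adjusted p = 0.00202), with the groups apart in both reporters, but lost its call with 24 (adjusted p = 0.473) or 30 libraries in the fit (adjusted p = 0.381). The matricellular genes CCN1 (0.50 ± 0.09) and CCN2 (0.38 ± 0.09), both targets of YAP, the AP-1 subunits FOSL1 (0.64 ± 0.15) and FOSL2 (0.36 ± 0.07) and the phosphatase DUSP4 (0.34 ± 0.08) were the others besides BTG2. CCN1 lost its call without R96H 3 (adjusted p = 0.0565). FOSL2 lost its call without R96H 3 (adjusted p = 0.0535). CCN2 kept its call only without R96Q 3, Gln 2 or 3, R96H 1 or His 3 and lost it in the other 7 fits with 1 library left out (adjusted p 0.062 to 0.113). FOSL1 kept its call only without R96Q 1, 2 or 3 or Gln 3 and lost it in the other 8 fits with 1 library left out (adjusted p 0.0686 to 0.118). DUSP4 kept its call only without R96Q 1 or 2 and lost it in the other 10 fits with 1 library left out (adjusted p 0.0522 to 0.11). MYC (0.09 ± 0.05, adjusted p = 0.309) was not called. The count was 4 without R96H 2 or His 1 or 2, and 2 without R96H 3.

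Few ribosomal protein genes were called. All 76 had a positive change under TMM scaling, where 51.7% of all genes tested did, and 73 of 76 under library totals. Their median was 0.07, and 4 were called: RPS15 (0.18 ± 0.04), RPL38 (0.18 ± 0.04), RPL23 (0.16 ± 0.04) and RPL24 (0.14 ± 0.04). RPS15 lost its call without R96H 3 or His 1 (adjusted p 0.0537 to 0.0603), and each of the others in at least 9 of the 12. The count was 1 without R96H 1 or 2, His 2 or 3, R96Q 1 or Gln 1 or 3, and 0 without His 1; it was 1 with library totals. Of the cell cycle genes 2 of 21 for S phase, PCNA (0.14 ± 0.03) and RRM2 (0.13 ± 0.03), and 1 of 23 for G2 and M phase, NUSAP1 (0.16 ± 0.04), were called higher. Neither S phase gene was called with library totals. PCNA kept its call only without R96Q 1 or 2, Gln 1 or 3 or His 3 and lost it in the other 7 fits with 1 library left out (adjusted p 0.0574 to 0.118). RRM2 kept its call only without R96Q 1 or Gln 2 and lost it in the other 10 fits with 1 library left out (adjusted p 0.0634 to 0.169). NUSAP1 lost its call without R96H 1 or 2 or His 1 or 2 (adjusted p 0.0501 to 0.0906). Autophagy had 3 of 26 called higher, SQSTM1, MAP1LC3B (0.16 ± 0.04) and the protease CTSK (0.40 ± 0.10); SQSTM1 alone was left without R96H 2 or 3, His 1 or 2, R96Q 2 or 3 or Gln 1, and with library totals, and MAP1LC3B lost its call with 24 libraries (adjusted p = 0.111). In the main edgeR fit no member was called among 23 cholesterol synthesis genes, 25 of hypoxia and glycolysis or 16 of NF-kB and inflammation. None was called among 20 paraspeckle and splicing genes or 13 mitochondrially encoded mRNAs either. At an unadjusted p under 0.05 there were 7, 4, 5, 6 and 6 in this order, beside 3521 of all 20684 genes tested. DESeq2 called 2 of the paraspeckle list and 2 of the mitochondrial mRNAs and none in the other 3. The cholesterol list had 3 calls without Gln 1. The paraspeckle list had 4 without His 3 and 1 without R96H 1, and the mitochondrial list 1 without R96Q 1. Without a filter on low counts edgeR called IDI1, INSIG1, PMVK, TRA2B and MT-ND1 (adjusted p 0.00155 to 0.0368). A replicate block in edgeR called these as well. Among the members with the smallest p it also called HMGCS1, PGAM1, SRSF1, SRSF2, SRSF4, MT-ND3 and MT-ND4L (adjusted p of all 0.00135 to 0.0492).

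Among called genes whose groups were apart in both reporters, the largest rises were in 2 genes of chromosome 7. FMC1 (ENSG00000164898.12; GRCh38 chr7:139339457-139346319), an assembly factor of mitochondrial ATP synthase, was 6.63, 6.92 and 6.96 CPM in the R96Q libraries and 217, 212 and 189 CPM in the Gln libraries. In the R96H libraries it was 8.42, 7.06 and 7.38 CPM and in the His libraries 80.2, 80.2 and 76.5 CPM. The mean of both effects was 4.14 ± 0.05 (adjusted p = 4.44e-21), that is 29.5-fold with Gln (95% counting interval 27.7 to 31.6) and 10.2-fold with His (9.56 to 10.8), and the 2 effects differed by -1.54 ± 0.10 (adjusted p = 7.97e-08). In the fit of all 24 EGFP(R96) libraries FMC1 also rose with the Trp mc-tRNA (0.68) and the Cys mc-tRNA (1.16), and the shared effect exceeded the Trp effect by 3.46 ± 0.17 (adjusted p = 6.51e-13). FMC1 overlaps LUC7L2 on the same strand, so reads in the shared stretch cannot be assigned to either with certainty, and RefSeq places an arginine tRNA gene, TRR-CCT4-1 (chr7:139340700-139340772), within both genes. Whether the mc-tRNA genes on the plasmids relate to that locus was not tested.

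CLEC2L, a C-type lectin gene 177.5 kb further along the chromosome (chr7:139523856-139544984), was nearly silent without an mc-tRNA. It had 0.0708, 0.0455 and 0.117 CPM in the R96Q and 0, 0 and 0.0369 CPM in the R96H libraries, against 1.73, 1.62 and 1.37 CPM in the Gln and 0.515, 0.694 and 0.360 CPM in the His libraries. That is 225 counts against 11 with Gln, 19.4-fold (10.6 to 39.3), and 72 against 2 with His, 39.96-fold (10.7 to 336, counting error only; shared adjusted p = 2.87e-07). The genes LUC7L2, AC083880.1 and KLRG2 between FMC1 and CLEC2L, and UBN2 and HIPK2 on either side, were not called: LUC7L2 changed by -0.06, KLRG2 by 0.00, AC083880.1 by -0.11, HIPK2 by 0.02 and UBN2 by -0.06. Of 49 tested genes whose models hold a RefSeq tRNA gene, 4 were called, beside 2.15% of all genes tested. They were FMC1, LINC00324 (1.00 ± 0.13), AC108134.2 (-0.92 ± 0.18) and MAP1LC3B. Of the 8 that hold an arginine tRNA gene FMC1 was the only call, and LUC7L2, which holds the same one, was not called. Whether genes that hold tRNA genes differ from others was not tested.

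The next largest of these rises were COX6A1P1 (1.20 ± 0.11), a pseudogene of a cytochrome oxidase subunit whose reads may come from its parent, and NPR3, the clearance receptor of natriuretic peptides. NPR3 was 1.01, 1.39 and 1.70 CPM in the R96Q and 1.92, 2.76 and 2.12 CPM in the Gln libraries, and 1.02, 0.920 and 0.627 CPM in the R96H and 2.90, 2.67 and 1.96 CPM in the His libraries. The shared change was 1.13 ± 0.16 (adjusted p = 7.55e-04). FAM169A-AS1 (1.03 ± 0.11), AC129492.4 (1.00 ± 0.15), LINC00324 and AC107959.2 (0.87 ± 0.12) are noncoding. COX6A1P1 lost its call with 24 (adjusted p = 0.262) or 30 libraries in the fit (adjusted p = 0.209), and AC129492.4 did so too (adjusted p 0.139 and 0.0708). LINC00324 went from 1.46, 1.30 and 1.62 to 3.14, 3.07 and 2.51 CPM and from 0.796, 1.16 and 0.941 to 2.20, 1.84 and 1.78 CPM, nearly the same change with both tRNAs (0.99 and 1.01). DCAF4L1 (0.66 ± 0.11), LSMEM1 (0.66 ± 0.09), the neural transcription factor NHLH1 (0.70 ± 0.14), the integrin ITGAL (0.72 ± 0.16), the receptor kinase-like STYK1 (0.76 ± 0.17) and NBPF13P (0.86 ± 0.21) completed the 15 with HSPA1B. NHLH1 lost its call without R96H 3 (adjusted p = 0.0509). ITGAL lost its call without R96H 2 or 3 or His 1 (adjusted p 0.0515 to 0.0903). STYK1 lost its call without R96Q 3, Gln 2, R96H 2 or 3 or His 1 or 2 (adjusted p 0.055 to 0.0817). NBPF13P kept its call only without R96H 1 or His 3 and lost it in the other 10 fits with 1 library left out (adjusted p 0.0509 to 0.151).

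By the same rule the largest fall was in CALHM1, a calcium homeostasis channel of neurons and taste cells. It was 2.50, 2.21 and 1.74 CPM in the R96Q and 0.0612, 0 and 0 CPM in the Gln libraries, and 0.550, 0.400 and 0.350 CPM in the R96H and 0.0468, 0.0217 and 0.0401 CPM in the His libraries. The counts were 3 against 292 with Gln, 103-fold lower (counting interval 34.8 to 502), and 5 against 68 with His, 12.3-fold lower (5.00 to 38.9; shared adjusted p = 1.98e-07). KRT3, a keratin of the cornea with the third largest fall, was 2.74, 3.80 and 2.03 CPM against 0.286, 0.200 and 0.143 CPM in the EGFP(R96Q) reporter and 0.455, 0.360 and 0.221 CPM against 0.117, 0.108 and 0.0401 CPM in EGFP(R96H). Over both reporters this gave a change of -2.85 ± 0.29 (adjusted p = 1.78e-05). MYPN, the muscle protein myopalladin, went from 10.3, 10.4 and 6.25 to 1.39, 1.31 and 0.632 CPM and from 0.986, 1.52 and 1.05 to 0.819, 0.564 and 0.761 CPM. The mean of both effects was -1.87 ± 0.21 (adjusted p = 4.10e-04). In these genes the R96Q libraries stood well above the R96H libraries before any mc-tRNA.

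The R96Q libraries were also above the R96H libraries for the pseudogene IRS3P (shared -2.96 ± 0.30), the noncoding AC025171.3 (-2.21 ± 0.15), F11-AS1 (-2.18 ± 0.17), AL359475.1 (-2.17 ± 0.33), LINC00485 (-2.06 ± 0.28) and LINC00858 (-1.10 ± 0.13), and C6orf163 (-1.21 ± 0.13). F11-AS1 was 7.64, 7.39 and 5.57 CPM in the R96Q and 1.02, 1.02 and 0.877 CPM in the Gln libraries, and 1.67, 1.08 and 0.812 CPM in the R96H and 0.374, 0.412 and 0.421 CPM in the His libraries. KRT3, MYPN and F11-AS1 fell with the Trp mc-tRNA too in the 24-library fit, with changes of -2.86 for KRT3, -2.90 for MYPN and -2.76 for F11-AS1. INHBE, a secreted activin subunit, changed by -1.25 ± 0.20, from 10.6, 10.1 and 8.32 to 4.55, 3.83 and 3.88 CPM and from 7.32, 11.5 and 16.05 to 3.58, 4.73 and 6.23 CPM; it lost its call without His 2 (adjusted p = 0.0521). ALPK2 (-1.27 ± 0.26), CHAC1, AC108134.2 and BCYRN1 were the remaining ones of the 15. ALPK2 lost its call without R96H 3 or His 2 (adjusted p 0.0515 to 0.0518). BCYRN1, the brain cytoplasmic RNA made by RNA polymerase III, fell from 12.4, 10.1 and 15.8 to 6.80, 5.76 and 8.75 CPM and from 13.2, 14.02 and 18.6 to 10.04, 9.50 and 8.97 CPM (shared -0.77 ± 0.13, adjusted p = 0.0138).

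The 2 effects differed for 236 genes (1.14%). Each tRNA was used with its own reporter, so differences due to tRNA, reporter or a batch cannot be told apart. The His effect was the lower for 90 of them (0.435%) and the higher for the rest (0.706% of the genes tested). In 216 of the 236 the effects had opposite signs, which choosing genes by the difference itself favours. In 182 of the 236 genes the Gln and His groups lay closer to each other than the R96Q and R96H groups, with a median gap of 0.21 against 0.51 (log2 of mean CPM plus 0.1). Both gaps enter the tested difference, so this is a description. The count was 125, 67 and 57 without R96H 1, 2 and 3, 42 and 49 without His 1 and 2 and 399 without its replicate 3. It was 97, 58 and 465 without R96Q 1, 2 and 3, and 386 and 71 without Gln 1 and 3.

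Interferon-stimulated genes, which answer viral RNA, were among the genes whose Gln and His effects differed. Of 25 tested 5 were called for a lower His effect and none for a higher: IFIT1, IFIT2, IFIT3, OAS3 and IFI6. IFIT3 was 0.519, 0.500 and 0.410 CPM in the R96Q and 0.878, 0.801 and 0.775 CPM in the Gln libraries, and 1.78, 1.62 and 1.86 CPM in the R96H and 0.960, 0.867 and 0.781 CPM in the His libraries (difference -1.80 ± 0.29, adjusted p = 0.00616). The Gln libraries lay above the R96Q libraries and the His libraries below the R96H libraries, without overlap. IFIT1 was 5.26, 5.85 and 5.71 and 6.29, 6.28 and 5.96 CPM, and 9.69, 10.1 and 11.3 and 5.52, 7.16 and 6.69 CPM, in the same order (difference -0.82 ± 0.15, adjusted p = 0.0135; 0.0505 without R96H 3). IFIT2 had a difference of -2.14 ± 0.44, OAS3 of -1.30 ± 0.28 and IFI6 of -0.70 ± 0.16. IFIT2 lost its call without R96Q 1 or 2, R96H 2 or 3 or His 1 (adjusted p 0.0505 to 0.0758). OAS3 kept its call only without R96Q 3, Gln 1 or 2, R96H 1 or His 3 and lost it in the other 7 fits with 1 library left out (adjusted p 0.0607 to 0.109). IFI6 kept its call only without R96Q 3, Gln 2 or His 3 and lost it in the other 9 fits with 1 library left out (adjusted p 0.0538 to 0.122). Only ISG20 was called for the shared effect, higher against a list median of -0.12 (0.55 ± 0.11, adjusted p = 0.013; 0.057 without R96H 2), and over the 25 genes the 2 effects had a Pearson correlation of -0.475.

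Histone genes differed the other way, with 4 of 20 called for a higher His effect and none for a lower. H2AC6, a replication-dependent H2A gene, fell from 13.5, 11.4 and 9.98 to 5.33, 4.70 and 4.65 CPM with Gln and was 3.07, 3.38 and 2.73 CPM without and 3.93, 4.03 and 3.46 CPM with His (difference 1.56 ± 0.18, adjusted p = 3.49e-04). H1-2 (1.08 ± 0.14) and H2BC21 (0.73 ± 0.16) were also among them, and H2BC21 kept its call only without Gln 1 or His 3 and lost it in the other 10 fits with 1 library left out (adjusted p 0.052 to 0.111). H2AC6 was also called lower for the mean (-0.46 ± 0.09, adjusted p = 0.0114), which for this gene describes the Gln effect, while the list median was 0.06.

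Mitochondrially encoded mRNAs, the 13 messages for respiratory chain subunits, showed 8 higher His effects and none lower. MT-ND1, a complex I subunit, was 1481, 1338 and 1342 CPM in the R96Q and 1353, 1211 and 1196 CPM in the Gln libraries, and 1259, 1212 and 1153 CPM in the R96H and 1824, 1599 and 1577 CPM in the His libraries (difference 0.61 ± 0.09, adjusted p = 0.00302). MT-CO2 lost its call without R96H 2 or His 1 or 2 (adjusted p 0.0553 to 0.0729). MT-CO3 kept its call only without R96Q 3, Gln 1, R96H 3 or His 3 and lost it in the other 8 fits with 1 library left out (adjusted p 0.0772 to 0.177). MT-ND5 kept its call only without Gln 3 or His 3 and lost it in the other 10 fits with 1 library left out (adjusted p 0.0563 to 0.129). In MT-ND1 the Gln groups overlapped and the His groups did not. Together the 13 took 3.89% ± 0.060 (SD, n = 3) of gene counts in the R96Q, 3.55% ± 0.033 in the Gln, 4.14% ± 0.030 in the R96H and 4.70% ± 0.179 in the His libraries. The Gln change was -0.335 and the His change 0.566 percentage points. Their mean of 0.115 points had p = 0.475 in a 2-sided exact permutation test within reporters (n = 3 per group, 400 relabellings, smallest possible p = 0.005).

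Other genes with large differences included receptors and tissue genes. EGFR, the epidermal growth factor receptor, rose with Gln from 13.4, 13.5 and 15.6 to 18.9, 19.5 and 22.97 CPM and was 28.95, 30.1 and 29.1 CPM without and 21.9, 26.5 and 26.3 CPM with His (difference -0.77 ± 0.13, adjusted p = 0.00616). RALGAPA1P1 (-1.30 ± 0.25), HEXIM2-AS1 (-1.21 ± 0.25), AP001469.2 (-1.04 ± 0.25), BMS1P2 (-1.02 ± 0.25) and AC118344.1 (-0.95 ± 0.23) also had lower His effects. The higher His effects were led by MYPN (2.29 ± 0.44), GIPC2 (2.09 ± 0.48), AC025171.3 (1.99 ± 0.31), the intestinal maltase-glucoamylase MGAM (1.90 ± 0.39), COLCA1 (1.89 ± 0.32), OR2B6 (1.86 ± 0.43), CASS4 (1.63 ± 0.34), POU4F2 (1.58 ± 0.33), H2AC6 and the pseudogene MARK2P13 (1.51 ± 0.18). MGAM went from 1.18, 0.640 and 0.830 to 4.91, 4.21 and 3.10 CPM with His and was 3.68, 2.39 and 1.91 and 3.78, 3.58 and 2.41 CPM without and with Gln. Of these 20 differences, those of AC025171.3, COLCA1, EGFR, FMC1, H2AC6, IFIT3 and MARK2P13 kept their calls whichever library was left out; with 24 libraries in the fit MARK2P13 lost its call (adjusted p = 0.0508). The others lost theirs in at least 1 such fit, with adjusted p-values up to 0.151. For 12 of those 13, IFIT1 being the exception, these included the fits without His 1 and without His 2.

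**Figure D5:**
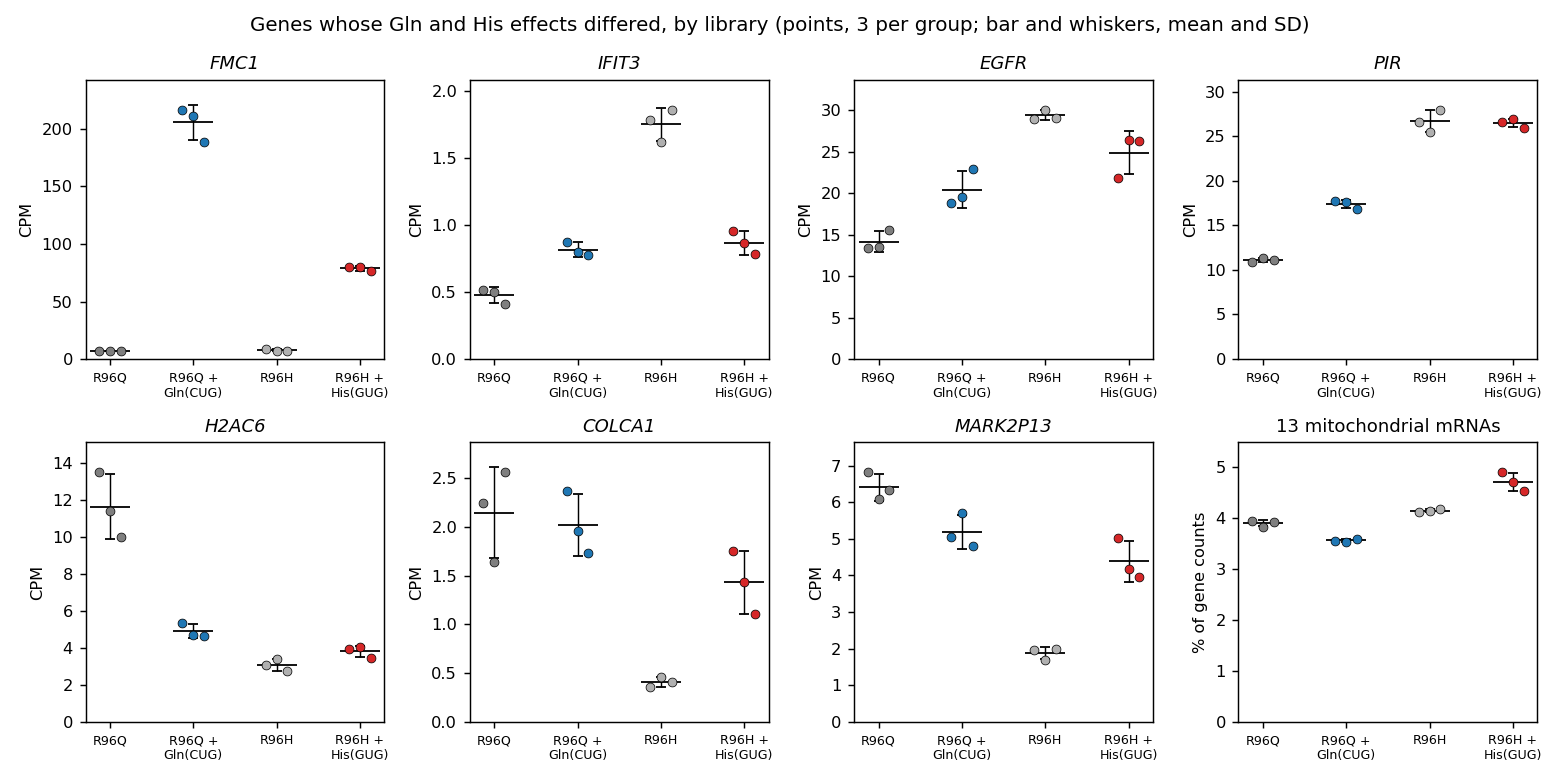
CPM of 7 genes and share of gene counts of the 13 mitochondrial mRNAs (y axes) in the 4 groups (x axis), with points for the 3 libraries of a group and a bar with whiskers for mean and SD. In IFIT3, COLCA1 and H2AC6 the groups with an mc-tRNA lie closer together than the reporters alone, while the mitochondrial share parts, 3.55% with Gln against 4.70% with His.

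Set against the Trp mc-tRNA, the shared effect was small. In the fit of the 24 EGFP(R96) libraries the Trp effect was called for 9244 of 21624 genes (42.7%) and the Cys effect for 13399 (62%), and the shared effect differed from the Trp effect for 6059 (28%; 2718 higher, 3341 lower, or 4626 and 2193 with library totals). The Trp comparison shares no library with the Gln and His comparisons. Of the 35 chaperones 33 were higher with Trp (median 1.13), and 31 had a shared effect below the Trp effect (15.5% of all genes did), among them HSPA8 (-0.49), DNAJB1 (-1.88), HSP90AA1 (-1.10) and BAG3 (-2.63). The ER unfolded protein response was called higher with Trp for 26 of 28 genes, and for 26 the shared effect lay below the Trp effect, with HSPA5 at 2.20 with Trp and its shared effect -2.09 from that. The integrated stress response had 20 of 36 higher with Trp and 22 below it in the shared effect; CTH changed by 0.28 with Trp and by -0.42 in the mean. UFD1 rose with all 4, by 0.37, 0.27, 1.14 and 1.17 for Gln, His, Trp and Cys. For the mitochondrially encoded mRNAs 12 of 13 were lower with Trp (median -0.61) and 12 had a shared effect above it.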

How the data were processed

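PolyA RNA of sorted HEK293 cells was sequenced in 12 libraries of 4 groups, used here out of 30 in 10 groups. The deposited values are raw read counts per gene, made by the authors with STAR, SAMtools and featureCounts on hg38, per the submitters' processing notes and the file headers. No source used here gives versions, annotation or strand setting, so reads of overlapping and antisense genes may be shared. Each file lists 58278 genes and 92 ERCC sequences, which stayed out of totals (10 to 106 counts per library). Positions and types come from GENCODE 29, which holds 55109 of the gene IDs in the same version. Gene totals were 40826508 to 55446962.

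Counts were fitted with edgeR 4.0.16 (R 4.3.3; filterByExpr, TMM, robust quasi-likelihood) as 4 group means with 8 residual degrees of freedom, for 20684 genes; the biological coefficient of variation was 7.24%. The shared effect is the mean of the Gln and His effects. Trp and Cys effects come from the 24 EGFP(R96) libraries (21624 genes). Replicates of a group differed beyond counting noise (chi-square per degree of freedom 5.17 to 16.5). The labels call replicates independent without naming their source, so p-values measure the spread between these libraries. The 26 lists and all members were chosen with earlier results of these data known. Named are the 15 largest rises and falls that reach 1 CPM with groups apart in both reporters, the 10 largest differences each way among called genes with a mean of at least 1 CPM in the highest group, up to 4 members per list with the smallest p, and a fixed panel of 21 genes; other called members are named to account for a count, and some called members are not reported here. The fits were tested on simulated data. The simulated libraries were independent draws, with the same mean per gene in all 4 groups before the changes. Changes were set in genes of at least 1 CPM and were equal with both tRNAs. No difference between the tRNAs was simulated, so its recovery was not tested. For changes of 1.25-, 1.5-, 2- and 4-fold, 82%, 90%, 100% and 100% of 50 genes each were recovered for the shared effect. Of the unchanged genes, 21 were called for the shared effect and 0 for the difference. Alternatives were RLE factors, library totals, DESeq2 1.42.0, 2 other filters, 24 or 30 libraries, a replicate block, a non-robust fit and leaving out each library.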

Additional observations from a re-analysis of the deposited data

Results flagged for a closer look

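Of the 236 genes whose Gln and His effects differed by a test of the difference itself, the 20 given here are the 10 largest each way that reach a mean of 1 CPM in the highest group (His minus Gln, log2 ± SE, edgeR's quasi-likelihood test). A lower His effect was found for IFIT3 (-1.80 ± 0.29), FMC1 (-1.54 ± 0.10) and EGFR (-0.77 ± 0.13), and a higher one for H2AC6 (1.56 ± 0.18), MARK2P13 (1.51 ± 0.18), COLCA1 (1.89 ± 0.32) and AC025171.3 (1.99 ± 0.31), each called whichever library was left out; with 24 libraries in the fit MARK2P13 was not called (adjusted p = 0.0508). COLCA1 was 2.24, 1.64 and 2.56 CPM in the R96Q, 2.37, 1.96 and 1.73 CPM in the Gln, 0.360, 0.460 and 0.406 CPM in the R96H and 1.76, 1.43 and 1.10 CPM in the His libraries.

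The remaining lower His effects depended on single libraries. IFIT1 (-0.82 ± 0.15) lost its call without R96H 3 (adjusted p = 0.0505). RALGAPA1P1 (-1.30 ± 0.25) lost its call without R96H 2 or His 1 or 2 (adjusted p 0.0553 to 0.0733). OAS3 (-1.30 ± 0.28) kept its call only without R96Q 3, Gln 1 or 2, R96H 1 or His 3 and lost it in the other 7 fits with 1 library left out (adjusted p 0.0607 to 0.109). HEXIM2-AS1 (-1.21 ± 0.25) kept its call only without R96Q 3, Gln 1 or 2, R96H 1 or His 3 and lost it in the other 7 fits with 1 library left out (adjusted p 0.0514 to 0.0806). AP001469.2 (-1.04 ± 0.25) kept its call only without R96Q 3, Gln 1 or His 3 and lost it in the other 9 fits with 1 library left out (adjusted p 0.0519 to 0.132). BMS1P2 (-1.02 ± 0.25) kept its call only without R96Q 3 or Gln 1 and lost it in the other 10 fits with 1 library left out (adjusted p 0.0532 to 0.146). AC118344.1 (-0.95 ± 0.23) kept its call only without R96Q 3, Gln 1 or His 3 and lost it in the other 9 fits with 1 library left out (adjusted p 0.0771 to 0.151).

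So did the remaining higher His effects. MYPN (2.29 ± 0.44) lost its call without R96Q 2, R96H 1 or 3 or His 1, 2 or 3 (adjusted p 0.0532 to 0.125). CASS4 (1.63 ± 0.34) lost its call without R96Q 1 or 2, R96H 2 or 3 or His 1 or 2 (adjusted p 0.0676 to 0.109). POU4F2 (1.58 ± 0.33) kept its call only without R96Q 3, Gln 1 or 2, R96H 1 or His 3 and lost it in the other 7 fits with 1 library left out (adjusted p 0.0654 to 0.105). MGAM (1.90 ± 0.39) kept its call only without R96Q 3, Gln 1 or 2, R96H 1 or His 3 and lost it in the other 7 fits with 1 library left out (adjusted p 0.0514 to 0.115). GIPC2 (2.09 ± 0.48) kept its call only without R96Q 3, Gln 1 or His 3 and lost it in the other 9 fits with 1 library left out (adjusted p 0.0595 to 0.129). OR2B6 (1.86 ± 0.43) kept its call only without R96Q 3, Gln 1 or His 3 and lost it in the other 9 fits with 1 library left out (adjusted p 0.0677 to 0.151).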

How the results depend on the processing

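With DESeq2 4.28% of the genes it gave an adjusted p were called for the shared effect, 2.29% for Gln, 6.74% for His and 4.33% for the difference (734, 339, 1102 and 639 genes). Without a filter on low counts the shares were 2.27%, 1.06%, 3.38% and 2.03% (931, 433, 1388 and 833 genes). With the 24 EGFP(R96) libraries in the fit they were 1.03%, 0.439%, 1.71% and 0.361% (223, 95, 369 and 78 genes). A mean of at least 1 CPM left 93 Gln calls (0.621%). The cause was not tested. With 24 libraries the counts of called members were 12 for the chaperones, 6 for the integrated stress response, 4 for p53 targets, 2 for NRF2 targets, 2 for the ubiquitin and p97 system, 1 for TRiC, 1 for mitochondrial chaperones and 0 for ribosomal proteins and cytosolic synthetases. DESeq2 called 17 of the integrated stress response, 13 p53 targets and 5 synthetases. Of the 445 shared calls, 210 were also called with 24 libraries and 281 with 30. Leaving out 1 library gave 0.672% to 2.53% for the shared effect, 0.235% to 0.792% for Gln, 0.450% to 4.23% for His and 0.197% to 2.19% for the difference. The mean change of the mitochondrial share was 0.0692 to 0.158 percentage points in these fits. The shared change of AC118344.1, which was not called, ran from -0.16 to 0.02 (0.0219) in them and was above 0 only without R96Q 3. Of 110 called values of single genes, 47 kept their call under every alternative, and none reversed. Correlations did not show that the replicate numbers pair libraries (same-numbered libraries 0.140, -0.095 and 0.154 for EGFP(R96Q), 0.096, -0.007 and 0.099 for EGFP(R96H), and not every library correlated best with its own number). The first and second principal components nevertheless rose from replicate 1 to 3 in each group. On the first they were -40.6, -30.7 and -24.9 for Gln and 17.9, 26.6 and 29.9 for His. The main fit leaves any such trend in its spread, and whether it reflects a pairing was not tested. A replicate block gave 6.56%, 2.49%, 10.2% and 5.79% in the order above (1357, 516, 2118 and 1197 genes). A gene with 0 counts in a library may have had up to 0.0541 to 0.0735 CPM there.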
